A study of Macaca mulatta with 25 samples.

Results

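The 31 genes described here encode the constitutive subunits of the proteasome, the protease that degrades most intracellular proteins tagged with ubiquitin. They were listed by symbol, with no cutoff on measured values, though earlier results of these data were known when the list was chosen. From the 20S core particle the list holds the 7 alpha subunits (PSMA1 to PSMA7) and the 7 beta subunits (PSMB1 to PSMB7). From the 19S cap it holds 17 subunits (6 ATPases, 3 other base subunits and 8 lid subunits). Each symbol matched exactly 1 of the 35395 rows of the count table, and all 31 rows were among the 13934 genes with enough counts to be tested. In the assembled particle the alpha rings gate the entrance of a barrel, the beta rings inside it cut proteins, and the cap at either end recognises ubiquitin chains, removes them, unfolds the substrate and threads it into the core. Early embryos depend on this route to clear proteins stored in the egg and to turn over cell cycle regulators. Subunit transcripts are known to be made in concert, and a shortage of proteasome activity raises them together through the transcription factor NFE2L1.

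RNA was sequenced from blastocysts of the rhesus macaque, embryos shortly before implantation in which an outer trophectoderm surrounds a cavity and an inner cell mass. The mothers were treated from about 2.5 years of age, just before puberty, for 5 to 6 years, with 10 females assigned to each group. Group C had cholesterol implants and standard chow (15% fat, 59% carbohydrate, 26% protein). Group T had testosterone implants, meant to hold circulating testosterone at 3 to 5 times the normal level, with the same chow. Group WSD ate an obesogenic Western-style diet (36% fat, 46% carbohydrate, 18% protein), and group TWSD had testosterone implants and that diet. Ovarian stimulation was possible in 10 females of group C, 7 of T, 6 of WSD and 3 of TWSD. In every group the mothers received gonadotropins and the eggs were fertilised in vitro with semen from 4 fertile males. Embryos were cultured for up to 8 days and their outer coat was taken off, so all groups carry the effects of stimulation and culture. The embryos themselves were not treated. The table held 5 C libraries (numbered 1, 2, 8, 11 and 12), 10 T, 8 WSD and 2 TWSD libraries (2 and 3). The labels do not tie libraries to mothers, fathers or single embryos, so libraries may share a parent and each p-value reflects variation among libraries alone.

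Library totals ran from 14219054 to 35544542 counts, and the lowest count of any subunit gene in any library was 1029, so counting error was small beside the spread between libraries. CPM values are counts scaled to equal library size, here with edgeR's TMM factors. Trophectoderm markers (8 of 10 matched) summed to between 1683 CPM (C 1) and 21332 CPM (WSD 6) across all libraries. Epiblast markers (8 of 10 matched) summed to 542.5 CPM or more outside the controls, to 27.07 CPM in C 11 and to 3.604 CPM in C 12. Primitive endoderm markers summed to 19042 CPM in C 11 and to 5087 CPM at most elsewhere, with the lowest sum in C 1 (672.9 CPM). Cumulus and granulosa markers summed to 1375 CPM in C 11 and to 246 CPM at most elsewhere. Sperm markers were at 3.45 CPM at most, and blood markers at 105 CPM at most. On closer view 5 libraries stood apart on placental or stress genes, which are measures other than the subunit genes. C 8, C 11, C 12 and T 1 held 1004 to 3025 CPM of CGA, a placental hormone subunit, and C 12 held 8642 CPM of DDIT3, a transcription factor of the endoplasmic reticulum stress response. TWSD 2 held 13587 CPM of 10 endoplasmic reticulum stress genes in sum, against 2739 CPM in TWSD 3. A single chaperone gene of that list, HSPA5, gave 12779 and 2074 CPM of these sums, and DDIT3 was at 41.2 CPM in TWSD 2. The same list summed to 48557 CPM in C 12 and 11054 CPM in C 11. TWSD 2 also had the highest sum of oocyte markers (467.9 CPM, against 327 CPM at most elsewhere). Its sum of placental (syncytiotrophoblast) markers was the lowest, at 31.5 CPM against 127.3 CPM or more elsewhere. The TMM factors of C 12 (0.7075) and TWSD 2 (0.7625) were the lowest of the 25, so their CPM values depend most on the scaling. A blastocyst is a mixture of cell types, and in these bulk libraries a change in the number of cells of a type cannot be told apart from a change in RNA per cell.

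Together the subunit genes took up between 0.745% (C 11) and 1.81% (TWSD 2) of all counts in a library. Their summed level was 7725 to 13790 CPM in the 5 C libraries, 9009 to 12360 CPM in T, 7712 to 12160 CPM in WSD, and 23740 and 9882 CPM in TWSD 2 and TWSD 3. The C, T and WSD ranges overlapped, TWSD 3 lay inside all of them, and TWSD 2 lay above every other library.

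**Figure D1:**
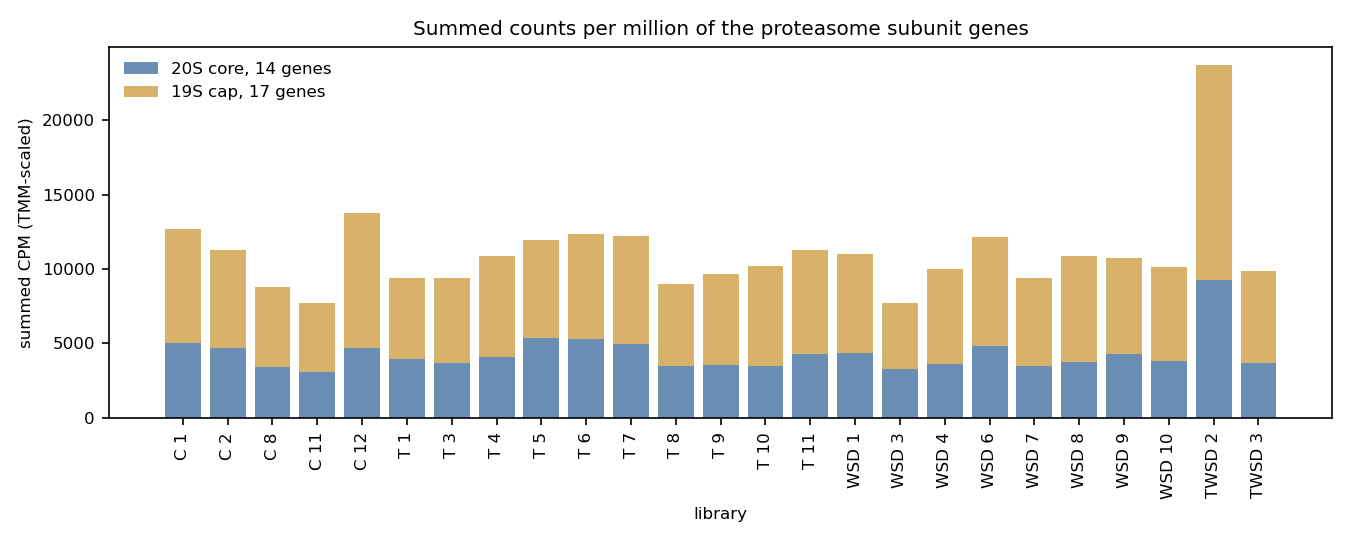
Bars give the summed TMM-scaled CPM of the 14 core genes (blue) and the 17 cap genes (yellow) in each of the 25 libraries, ordered by group. TWSD 2 reaches 23740 CPM, and the other 24 libraries lie between 7712 and 13790 CPM.

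No subunit gene passed an adjusted p of 0.05 in any of the 6 comparisons (edgeR quasi-likelihood F-test with Benjamini-Hochberg adjustment over all genes tested, which applies to every adjusted p below unless another tool is named). For T against C the count was 0 of 31, where 4.11% of all genes tested passed. For WSD against C it was 0 of 31, with 4.07% of all genes. For TWSD against C it was 0 of 31, with 1.2% of all genes. For TWSD against the mean of T and WSD it was 0 of 31, with 0.1% of all genes. For the interaction (the TWSD minus T difference less the WSD minus C difference) it was 0 of 31, with 0.0718% of all genes. For T against WSD it was 0 of 31, with 0% of all genes. At an unadjusted p under 0.05, T against C gave 1 higher and 1 lower subunit gene (4.36% and 13.9% of all genes), WSD against C gave 1 higher and 3 lower (4.41% and 13.9%), and T against WSD gave 0 and 0 (1.01% and 0.689%). In the same way TWSD against C gave 14 higher and 1 lower (8.66% and 13.3%), TWSD against the single treatments 19 and 1 (8.07% and 6.33%), and the interaction 14 and 0 (8.6% and 4.96%). DESeq2 called 1 subunit gene in T against C (7.91% of all genes), 6 in TWSD against C (14.3%), 2 in TWSD against the single treatments (4.84%) and 2 in the interaction (2.83%). With limma voom 0 subunit genes were called in all 6 comparisons, as were 0 of all genes tested. The comparisons of T, WSD and TWSD with C use the same 5 control libraries, so their values are given side by side and are not independent of each other.

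The transcripts varied less between libraries of a group than the typical gene. The SD of log2(CPM + 1) over the 10 T libraries had a median of 0.30 over the subunit genes and 0.60 over all genes tested. Over the 8 WSD libraries the medians were 0.27 and 0.57. Over the 5 C libraries they were 0.46 and 1.01, and without C 12 they were 0.36 and 0.75. These medians were not matched on expression level, and lowly expressed genes carry more counting error. Among T libraries the steadiest subunit gene was PSMD4 (SD 0.16) and the most variable was PSMC3 (SD 0.39).

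The pattern that dominated the table was that of a single library. TWSD 2 had the highest level of all 25 libraries for 22 of the 31 subunit genes, against 15.6% of all genes tested. Its median difference from the median of the other 24 libraries was 1.23 on the log2(CPM + 1) scale, and 30 of 31 genes were above that median. The median difference was 0.78 with library totals as the only scaling and 1.15 with DESeq2 size factors, while the median over all genes tested in TWSD 2 was -0.22, -0.44 and -0.49 under the 3 scalings. TWSD 3 was highest for 0 genes, with a median difference of -0.11 and 8 of 31 genes above. The next highest medians were those of C 1 (0.34), T 6 (0.31) and C 12 (0.29). At the other end, WSD 3 was below the median of the others for all 31 genes (median difference -0.44) and lowest of all for 8, against 1.14% of all genes, and C 11 (median -0.41) was lowest for 7, against 11.2% of all genes.

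**Figure D2:**
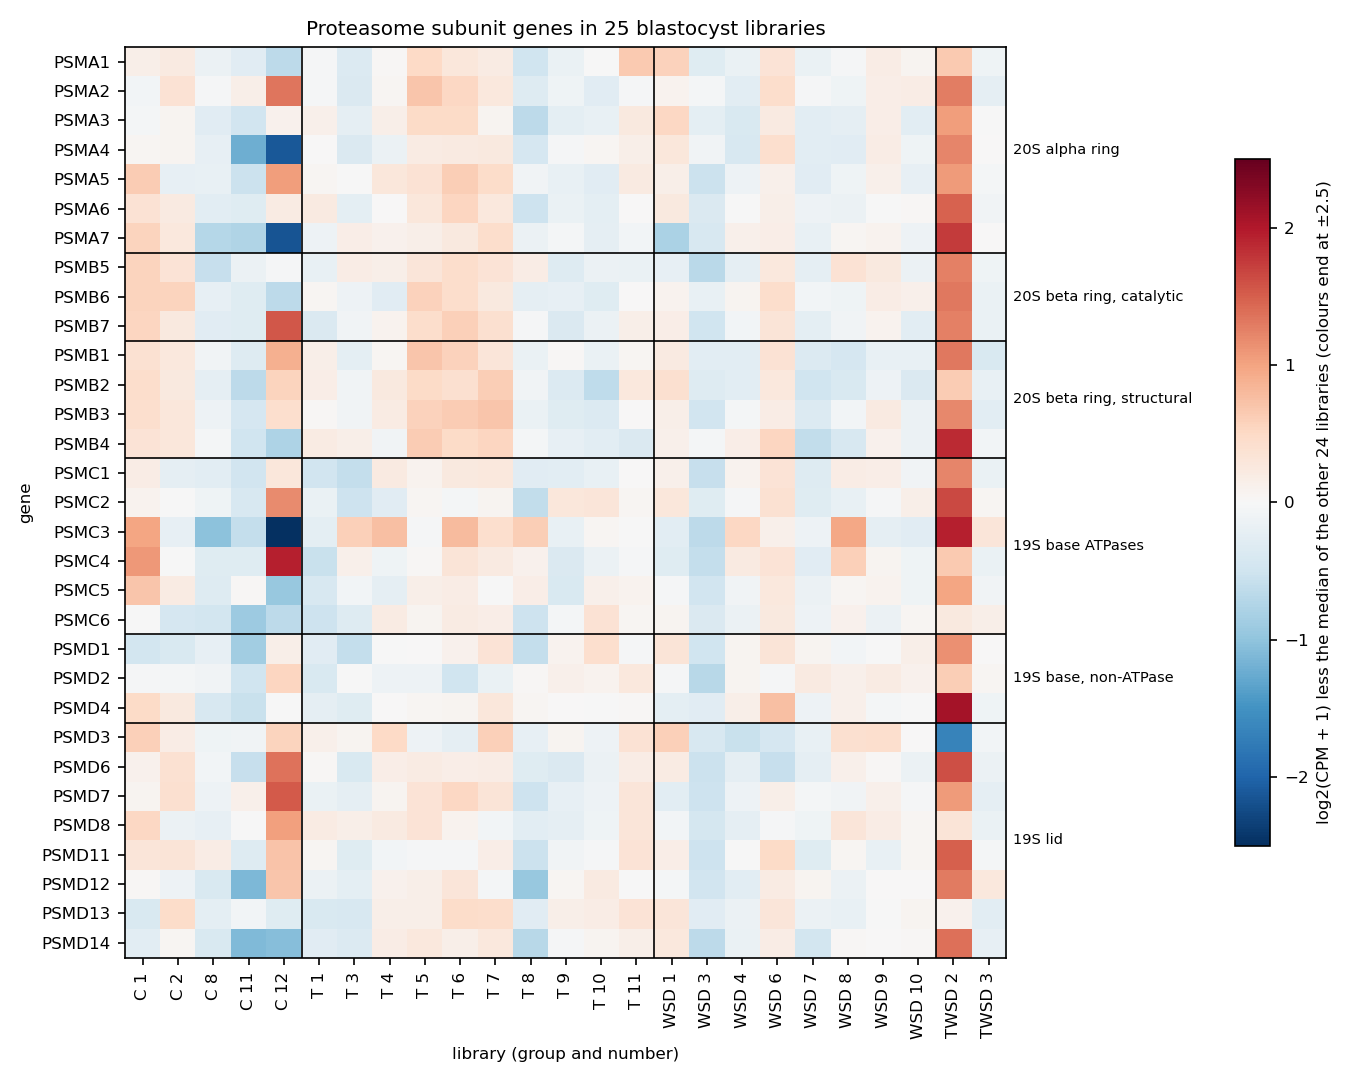
Each cell gives log2(CPM + 1) of a subunit gene (rows, grouped by place in the particle) in a library (columns, grouped by treatment), less the median of the other 24 libraries. TWSD 2 is red in nearly all rows with PSMD3 in blue (-1.67), C 12 mixes reds with the deepest blue (-2.55, PSMC3), and TWSD 3 is pale throughout.

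The alpha subunits form the outer rings of the core, and their N-terminal tails gate the channel. PSMA7 stood at 567.6, 461, 241, 234 and 87.9 CPM in C 1, C 2, C 8, C 11 and C 12. It ran from 337 to 524 CPM in T (median 397) and from 226 to 431 CPM in WSD (median 380), and it was at 1291 CPM in TWSD 2 and 389 CPM in TWSD 3. Only TWSD 2 left the range of the other groups upward, at 3.36 times the median of the other 24 libraries, and C 12 was the lowest of all 25. The log2 difference between TWSD and C was 1.40 ± 0.42 (SE), with an adjusted p of 0.0798. PSMA4 was similar in shape, with 358, 361, 301, 149 and 79.9 CPM in C, 260.4 to 410.4 CPM in T (median 353), 262 to 462 CPM in WSD (median 327), and 808 and 349 CPM in TWSD. C 11 and C 12 were low for it and TWSD 2 was high. PSMA6 reached 342 CPM in TWSD 2 against 84.5 to 176 CPM in the other 24 libraries, and its difference between TWSD and the single treatments was 0.90 ± 0.27 (adjusted p = 0.118). PSMA2 differed in that its highest value, 877 CPM, was in C 12, just above the 846 CPM of TWSD 2. The remaining alpha genes, PSMA1, PSMA3 and PSMA5, were at 1.57 to 2.10 times the median of the others in TWSD 2. Over the 7 alpha genes the median log2 difference from C was 0.16 in T, 0.08 in WSD and 0.71 in TWSD.

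Among the beta subunits 3 carry the protease sites: PSMB5 (chymotrypsin-like), PSMB6 (caspase-like) and PSMB7 (trypsin-like). PSMB5 was at 563, 485.7, 274, 365 and 389 CPM in C, at 324 to 521 CPM in T (median 429), at 254 to 491 CPM in WSD (median 362.5), and at 911 and 375 CPM in TWSD. PSMB6 was at 625.4, 632, 383, 356 and 279.7 CPM in C, at 354 to 636 CPM in T (median 417.5), at 388 to 579 CPM in WSD (median 450.3), and at 1058 and 391 CPM in TWSD. For both genes the ranges of C, T and WSD overlapped and TWSD 2 was the highest library. C 1 lay above all T and WSD libraries for PSMB5, and C 12 was the lowest of the 25 libraries for PSMB6. PSMB7 was at 290.0, 238, 169.5, 167 and 588.5 CPM in C, at 160.0 to 302 CPM in T (median 207), at 147 to 249.5 CPM in WSD (median 196), and at 482 and 185 CPM in TWSD. Here C 12 was higher than TWSD 2. In T against C the log2 differences of PSMB5, PSMB6 and PSMB7 were 0.01 ± 0.205, -0.03 ± 0.22 and -0.42 ± 0.26, with adjusted p of 0.417 or more. In WSD against C they were -0.11 ± 0.21, 0.00 ± 0.23 and -0.56 ± 0.27, with adjusted p of 0.255 or more. In TWSD against C they were 0.63 ± 0.30, 0.67 ± 0.33 and 0.20 ± 0.39, with adjusted p of 0.223 or more. Against the mean of the single treatments the TWSD differences were 0.68 ± 0.26, 0.68 ± 0.28 and 0.69 ± 0.33, with adjusted p of 0.235 or more. In T against WSD they were 0.12 ± 0.18, -0.03 ± 0.19 and 0.15 ± 0.22, and in the interaction 0.73 ± 0.35, 0.69 ± 0.38 and 1.18 ± 0.44 (adjusted p of 0.227 or more). Without C 12 the PSMB7 difference between T and C was 0.01 and that between WSD and C was -0.14.

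The other 4 beta subunits complete the inner rings. PSMB4, whose tail helps to close the core during assembly, stood at 113, 109, 89.4, 65.5 and 53.8 CPM in C, 71.9 to 140.1 CPM in T (median 93.9) and 59.9 to 129 CPM in WSD (median 92.8). It was at 329 CPM in TWSD 2, 3.67 times the median of the other 24, and at 87.9 CPM in TWSD 3. The difference between TWSD and C was 1.27 ± 0.38 (adjusted p = 0.0765), and that between TWSD and the single treatments was 1.12 ± 0.32 (adjusted p = 0.102). Without TWSD 2 these were 0.05 and -0.11. PSMB1 and PSMB3 were also highest in TWSD 2, at 895 and 397 CPM. PSMB2 was barely so, at 302.5 CPM against 300.9 CPM in T 7. In T against WSD the smallest p of any subunit gene was that of PSMB2 (0.24 ± 0.185), followed by PSMA5 (0.255 ± 0.20) and PSMB1 (0.25 ± 0.20), all with an adjusted p of 1.

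The 6 PSMC genes encode the ATPases that unfold substrates. PSMC3 had the widest range of the list: 1022, 456, 258, 348 and 88.8 CPM in C, 442 to 889 CPM in T (median 614), 332 to 1005 CPM in WSD (median 464), and 1981 and 635 CPM in TWSD. TWSD 2 was 3.83 times and C 12 was 0.169 times the median of the others. PSMC4 showed a different order, with 1304 CPM in C 12, 724.5 CPM in C 1 and 278.5 to 341 CPM in the other C libraries. It ran from 234 to 423 CPM in T (median 343) and from 228.5 to 517.5 CPM in WSD (median 338), and stood at 532 and 305 CPM in TWSD 2 and TWSD 3. The group medians of C, T and WSD were therefore close (341, 343 and 338 CPM) while the C mean was raised by its 2 high libraries. PSMC4 had the smallest p of the 31 genes in both single-treatment comparisons, -0.79 ± 0.28 in T (adjusted p = 0.113) and -0.74 ± 0.30 in WSD (adjusted p = 0.169). Without C 12 the differences were -0.25 (adjusted p = 0.757) and -0.205 (adjusted p = 0.829). DESeq2 placed the PSMC4 difference between T and C past the threshold, at -0.91 with an adjusted p of 0.0454.

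PSMC6 was spread differently, with its highest level in T 10 and TWSD 2 among the treated libraries. It stood at 147, 111, 107, 79.1 and 94.45 CPM in C, 103 to 185.5 CPM in T (median 151), 115 to 172 CPM in WSD (median 143), and 173 and 161 CPM in TWSD. Most treated libraries lay above 4 of the 5 controls, and C 1 lay among the treated libraries. Its log2 difference was 0.43 ± 0.18 in T (adjusted p = 0.19), 0.42 ± 0.19 in WSD (adjusted p = 0.227) and 0.63 ± 0.27 in TWSD (adjusted p = 0.171). Both TWSD libraries were above all 5 controls, which was so for 1 of 31 subunit genes and for 5.29% of all genes tested, and without TWSD 2 the difference was 0.60. PSMC2 (796 CPM) was highest of all in TWSD 2, with a difference from the single treatments of 1.07 ± 0.30 (adjusted p = 0.102), and was also high in C 12 (571 CPM). PSMC1 and PSMC5 were at 467.5 and 676 CPM in TWSD 2, above the 137 to 251 CPM and 180 to 557 CPM of the other libraries.

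**Figure D3:**
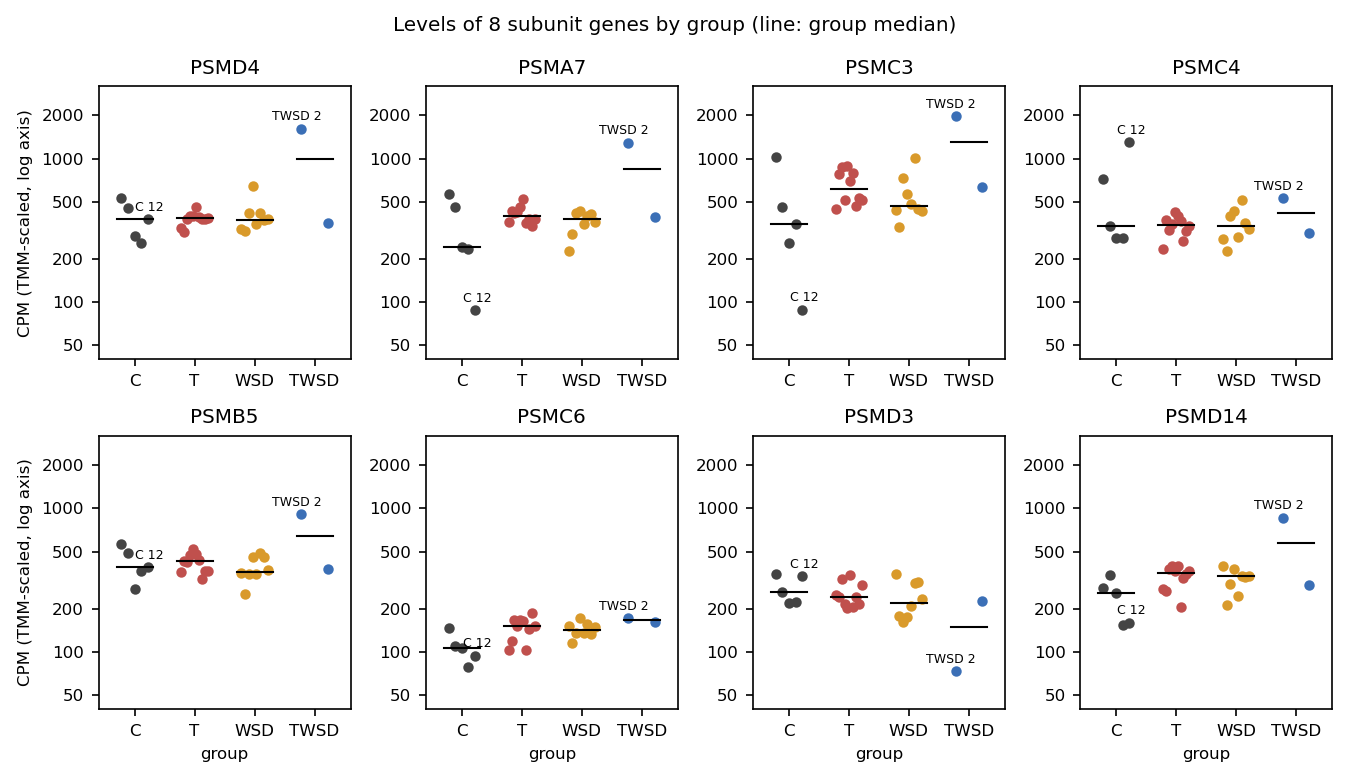
Points give the TMM-scaled CPM (log axis) of 8 subunit genes in each library, by group, and lines give group medians. TWSD 2 stands above all other libraries for PSMD4 (1616 CPM), PSMA7 (1291 CPM), PSMC3 (1981 CPM), PSMB5 (911 CPM) and PSMD14 (862 CPM) and below all for PSMD3 (73.7 CPM), and C 12 is highest for PSMC4 (1304 CPM).

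In the base, 3 listed subunits have no ATPase activity. PSMD1 and PSMD2 are the large scaffolds that dock ubiquitin receptors, and PSMD4 is itself a ubiquitin receptor. PSMD4 stood at 532, 452, 286.5, 259.6 and 376 CPM in C, 308 to 461 CPM in T (median 385), 311 to 639 CPM in WSD (median 374), and 1616 and 353 CPM in TWSD 2 and TWSD 3. TWSD 2 was 4.26 times the median of the other 24 libraries, the largest ratio of any subunit gene in that library, and TWSD 3 lay below the C mean. PSMD4 came nearest to the threshold: 1.37 ± 0.35 in TWSD against C (adjusted p = 0.0522) and 1.33 ± 0.29 against the single treatments (adjusted p = 0.0579). Without TWSD 2 the same differences were -0.09 and -0.14 (adjusted p = 0.964 and 1). In T and WSD against C, PSMD4 differed by 0.00 ± 0.24 and 0.07 ± 0.25. PSMD1 was at 1363 CPM in TWSD 2 and 339 to 827 CPM elsewhere, with a difference between TWSD and C of 1.00 ± 0.31 (adjusted p = 0.0835). PSMD2 was at 1281 CPM in TWSD 2, little above the 1206 CPM of C 12. In T against WSD all 3 genes were slightly lower, by 0.07 to 0.08 on the log2 scale, with an adjusted p of 1.

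The lid holds 8 of the listed genes, of which PSMD14 encodes the enzyme that removes ubiquitin chains from arriving substrates. PSMD14 stood at 278, 343, 257, 155 and 160.0 CPM in C, 206 to 398 CPM in T (median 357), 212 to 399.7 CPM in WSD (median 336), and 862 and 290.4 CPM in TWSD. C 11 and C 12 were the lowest of the 25 libraries and TWSD 2 was the highest. Its difference between TWSD and C was 1.27 ± 0.34 (adjusted p = 0.0561), and it was 0.48 ± 0.24 in T (adjusted p = 0.29) and 0.41 ± 0.25 in WSD (adjusted p = 0.403). PSMD3, a scaffold of the lid, went the other way. It was at 347, 262.5, 218, 221 and 338 CPM in C, 202 to 346 CPM in T (median 241), 161 to 348 CPM in WSD (median 221), 73.7 CPM in TWSD 2 and 226 CPM in TWSD 3. Among the subunit genes TWSD 2 was the lowest of the 25 libraries for PSMD3 only, while 16.2% of all genes tested were lowest in it. The differences were -0.89 ± 0.38 in TWSD against C (adjusted p = 0.175) and -0.72 ± 0.34 against the single treatments (adjusted p = 0.337).

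PSMD6, PSMD7, PSMD11 and PSMD12 are further structural lid subunits. PSMD6 was at 322, 387, 291, 202 and 758 CPM in C, 232 to 342 CPM in T (median 317.5), 202 to 340.2 CPM in WSD (median 268), and 913 and 274 CPM in TWSD. C 12 and TWSD 2 were the only libraries above 387 CPM. Its interaction value, 1.53 ± 0.43, had the smallest p of the list (adjusted p = 0.13), followed by PSMD11 at 1.22 ± 0.36 (adjusted p = 0.14) and PSMC2 at 1.35 ± 0.41 (adjusted p = 0.155). Without TWSD 2 these were 0.42, 0.27 and 0.34. PSMD7 was highest in C 12 (906 CPM, against 293 to 411 CPM in the other C libraries), and the difference between WSD and C, -0.60 ± 0.25 (adjusted p = 0.176), was -0.20 without C 12. PSMD11 and PSMD12 were highest in TWSD 2, at 1558 and 906 CPM. PSMD8 and PSMD13 were close to the other libraries there, at 1.255 and 1.08 times their median.

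For the single treatments the share of subunit genes above C depended on the setting and on the controls used. In T against C 15 of 31 log2 differences were positive, with a median of 0.00 against -0.12 over all genes tested, of which 43.8% were positive. In WSD against C 14 were positive, with a median of -0.08 against -0.12 over all genes, of which 43.4% were positive. With library totals as the only scaling 23 were positive in T against C, and with DESeq2 size factors 10 were, while the all-gene median moved to 0.02 and -0.19. Without C 8, C 11 and C 12 only 6 of 31 were positive in T (median -0.12, all genes 0.08) and 7 in WSD (median -0.27, all genes 0.065). With the library number as a replicate block 27 and 25 were positive (medians 0.175 and 0.11, all genes -0.09 and -0.105). The smallest p values in the positive direction belonged to PSMC6, PSMD14 and PSMA4 in T (0.48 ± 0.27 for PSMA4, adjusted p = 0.357) and to PSMC6, PSMD1 and PSMA4 in WSD (0.38 ± 0.22 and 0.47 ± 0.28 for the last pair, adjusted p = 0.385 and 0.394). In the negative direction they belonged to PSMC4, PSMD7 and PSMB7 in both, with PSMD7 at -0.47 ± 0.24 in T (adjusted p = 0.3). PSMC4, PSMD7 and PSMB7 were the 3 genes with the largest ratios of C 12 to the other libraries, at 3.84, 2.90 and 2.95 times their median. T differed from WSD by a median of 0.07, with 23 of 31 genes positive against 51.7% of all genes, and no difference exceeded 0.255 in size.

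**Figure D4:**
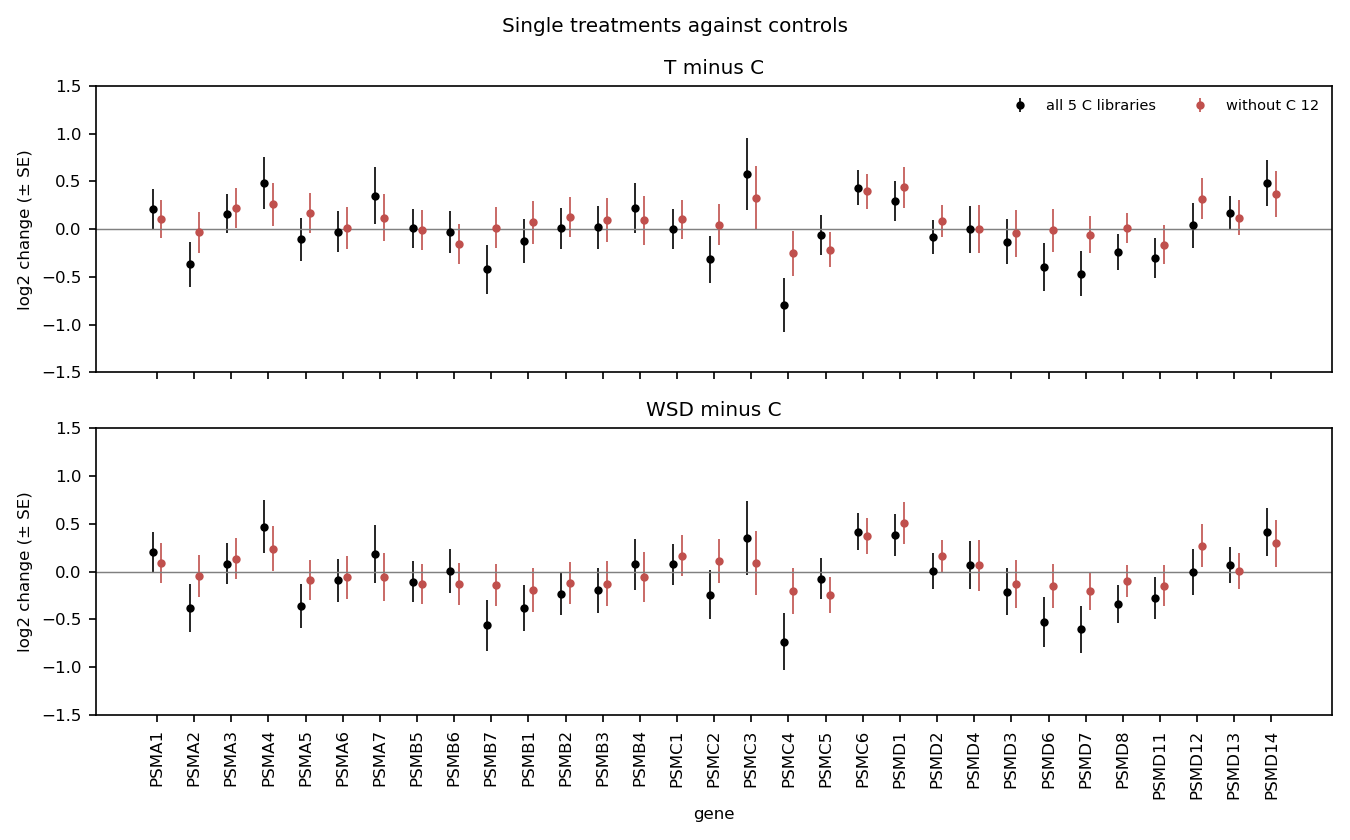
Points give the log2 difference (± SE) of each subunit gene in T (upper panel) and WSD (lower panel) against the 5 C libraries (black) and against the 4 left without C 12 (red). PSMC4 moves from -0.79 to -0.25 in T and from -0.735 to -0.205 in WSD when C 12 is left out.

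With both treatments 27 of 31 differences from C were positive, with a median of 0.63, where 39.5% of all genes were positive and the all-gene median was -0.38. Of the subunit genes 14 were higher at an unadjusted p under 0.05, and PSMD3 was lower. The other negative differences were those of PSMC4 (-0.48 ± 0.46), PSMD8 (-0.22 ± 0.30) and PSMD13 (0.00 ± 0.27), with adjusted p of 0.543 or more. Against the single treatments 29 of 31 were positive with a median of 0.67, where 42.9% of all genes were positive and the all-gene median was -0.20. In that comparison PSMD13 (-0.12 ± 0.25, adjusted p = 0.846) was negative beside PSMD3. In the interaction 28 of 31 were positive with a median of 0.69, where 48.2% of all genes were, and the negative values were those of PSMD3 (-0.55 ± 0.42), PSMD13 (-0.24 ± 0.32) and PSMC6 (-0.22 ± 0.32).

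These TWSD values rested on TWSD 2. Without it, 11 of 31 differences from C were positive (median -0.14, all genes -0.34). Against the single treatments 7 of 31 were positive (median -0.10, all genes -0.13), and in the interaction 13 of 31 (median -0.05, all genes -0.13). TWSD was then 1 library, assumed to vary as those of the other groups do. With TWSD 2 as the lone TWSD library, 28 of 31 differences from C were positive (median 1.13, all genes -1.08). The same fit gave 30 of 31 positive against the single treatments (median 1.20, all genes -0.75) and 28 of 31 in the interaction (median 1.24, all genes -0.61). With both TWSD libraries kept, the count of subunit genes passing against C was 2 without T 1 (2.47% of all genes) and 4 without C 12 (2.71%). It was 6 without C 1 (5.41%), 4 without C 2 (2.81%), 0 without C 8 (1.02%) and 0 without C 11 (0.814%). Against the single treatments it was 7 without C 12 (2.58% of all genes) and 1 without C 1 (0.384%). In that comparison it was 0 without C 2 (0.0866%), C 8 (0.08%), C 11 (0.138%) or T 1 (0.124%). With 2 TWSD libraries, what sets TWSD 2 apart cannot be told apart from an effect of the combined treatment.

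**Figure D5:**
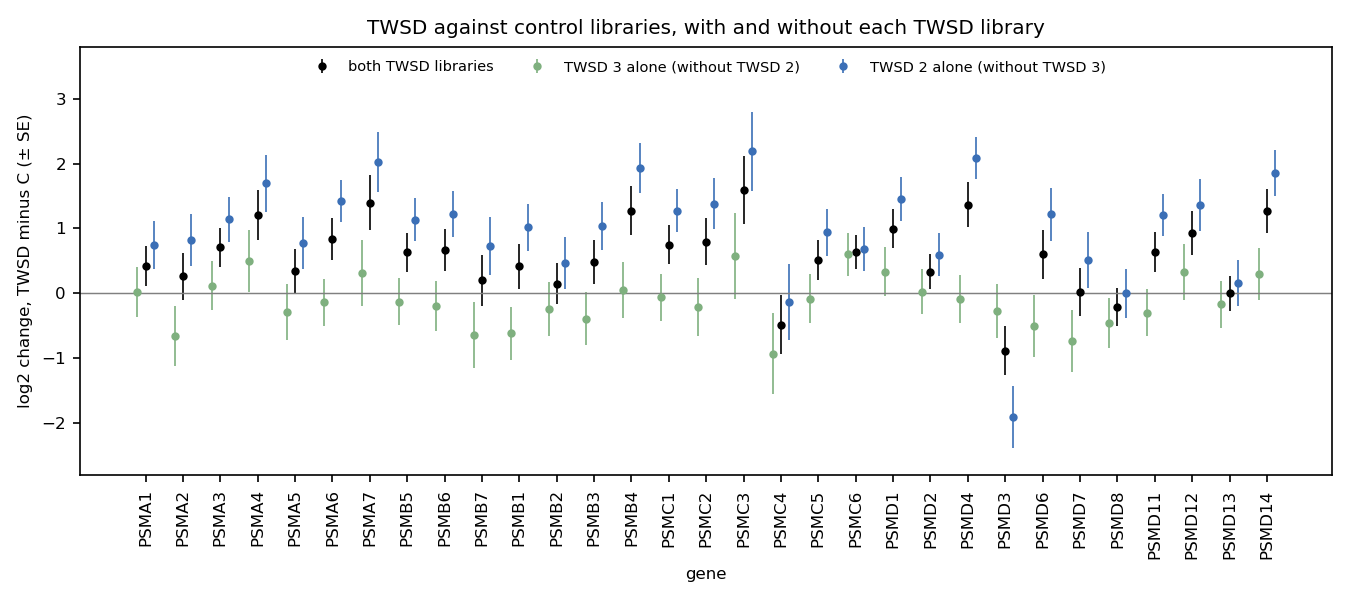
Points give the log2 difference (± SE) between TWSD and C for each subunit gene with both TWSD libraries (black), with TWSD 3 alone (green) and with TWSD 2 alone (blue). PSMD4 lies at 1.37 with both, -0.09 with TWSD 3 alone and 2.08 with TWSD 2 alone, and PSMD3 lies at -0.89, -0.28 and -1.91.

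C 12 was uneven across the subunit genes, as it was across all genes. It was the highest of all libraries for 5 subunit genes (19.3% of all genes tested were highest in it) and the lowest for 7 (21.9% of all genes). Its deviations from the median of the other libraries had an SD of 1.12 over the 31 genes, against 0.14 to 0.70 in the other 24 libraries. Over all genes tested the SD was 2.12 in C 12, also the highest of the 25 libraries. PSMC4, PSMB7, PSMD7, PSMD6 and PSMA2 were at 2.53 to 3.84 times the median of the others, and PSMC3, PSMA7 and PSMA4 at 0.17 to 0.23 times it. Genes whose products share a ring were at opposite ends in this library: for PSMA2 its 877 CPM was the highest level in any library and for PSMA4 its 79.9 CPM was the lowest. The summed core genes were 0.513 times the summed cap genes in C 12, the lowest ratio of the 25 libraries, while TWSD 2 (0.6395) lay within the 0.520 to 0.81 of the others. The part of endoplasmic reticulum stress transcripts, which summed to 48557 CPM in C 12, or of the low epiblast markers there in this unevenness was not tested.

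Genes that act with the proteasome were read from lists drawn up for this purpose. Subunits made in immune and germ cells were scarce: PSMB8, PSMB9, PSMB10, PSMB11 and PSMA8 summed to 7.31 to 59.4 CPM in C, T and WSD, to 107 CPM in TWSD 2 and to 32.1 CPM in TWSD 3, and 0 of the 4 tested passed in any comparison. Among 12 other cap subunits and regulators UCHL5, a deubiquitinating enzyme of the cap, rose in TWSD against C (1.79 ± 0.45, adjusted p = 0.0482). It stood at 224, 219.6, 148, 76.4 and 37.5 CPM in C and at 714 and 259 CPM in TWSD 2 and TWSD 3, above all 5 controls, and at 106 to 303.5 CPM in T and 145.5 to 266 CPM in WSD. Without TWSD 2 the difference was 0.90 (adjusted p = 0.646). The 8 assembly chaperones gave 0 calls. Their sum was 1324 CPM in TWSD 2 against 432 to 787 CPM elsewhere, and POMP, which matures the core, was at 654 CPM there against 51.8 to 259.9 CPM elsewhere (TWSD against C 1.47 ± 0.42, adjusted p = 0.0686). VCP, the ATPase that extracts ubiquitylated proteins, was at 4098 CPM in TWSD 2 and 1299 to 2371 CPM elsewhere. NFE2L1 was at 8.37 CPM in TWSD 2, the lowest of the 25 libraries, where the others held 70.4 to 234 CPM. Of all genes tested 16.2% were lowest in TWSD 2. The 9 listed genes of the NFE2L1 route, with NFE2L1 itself, summed to 614.9 CPM there and to 450 to 1699 CPM elsewhere. NFE2L3, MAFF and MAFK were also lowest in TWSD 2, while NFE2L2 (292.8 CPM), NGLY1 (152.7 CPM) and BACH1 (90.6 CPM) were above most other libraries.

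Of 9 tested genes on the NFE2L1 route, 3 fell in T against C: MAFF (-3.15 ± 0.70, adjusted p = 0.0132), MAFG (-1.44 ± 0.39, adjusted p = 0.0343) and MAFK (-2.41 ± 0.56, adjusted p = 0.0165), small partners of NFE2L1 and related factors. MAFF (-3.27 ± 0.76) and MAFG (-1.67 ± 0.41) also fell in WSD against C, with adjusted p of 0.0164 and 0.0234, and MAFK fell in TWSD against C (-4.92 ± 1.21, adjusted p = 0.0399). Among genes that deliver substrates ZFAND5, which stimulates the proteasome, fell by 0.95 ± 0.27 in T (adjusted p = 0.0446) and by 1.00 ± 0.29 in WSD (adjusted p = 0.0453). C 12 held the highest value of any library for MAFF (649 CPM), MAFG (554 CPM), MAFK (112 CPM) and ZFAND5 (1462 CPM). Without it the T differences were -0.33, -0.37, -1.75 and -0.405 (adjusted p of 0.17 or more), and MAFK in TWSD was -4.24 (adjusted p = 0.0415). The MAFK call in TWSD was lost without TWSD 2 (-3.97, adjusted p = 0.637), without C 11 (-4.78, adjusted p = 0.0589) and without C 8, C 11 and C 12 (-2.66, adjusted p = 0.229).

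Of 7 cytosolic stress genes HSP90AA1, a heat shock chaperone, rose in T (0.83 ± 0.24, adjusted p = 0.0496) and WSD (0.87 ± 0.25, adjusted p = 0.0457), from 1745, 1483, 1621, 808 and 876 CPM in C to 1458 to 3280 CPM and 1708 to 2942 CPM. Without C 12 the differences were 0.72 and 0.755 (adjusted p = 0.195 and 0.166). Of 10 endoplasmic reticulum stress genes 9 fell in T and 9 in WSD against C, among them DDIT3 (-6.09 ± 0.90 and -6.92 ± 1.03, adjusted p = 0.00239 and 0.00236), TRIB3 (-4.70 ± 0.79 and -4.77 ± 0.86), EIF2AK3 (-3.62 ± 0.55 and -3.19 ± 0.59), HERPUD1 (-4.24 ± 0.66 and -3.78 ± 0.70), DNAJB9 (-2.98 ± 0.50 and -2.92 ± 0.54) and PPP1R15A (-4.05 ± 0.70 and -4.51 ± 0.78). DDIT3 stood at 11.04, 21.9, 268, 302 and 8642 CPM in C, at 10.1 to 67.3 CPM in T and at 9.68 to 27.7 CPM in WSD. Placental markers fell beside them, as did VCAN of the cumulus and granulosa list. In T these were ERVFRD-1 (-7.68 ± 1.64) and VCAN (-5.66 ± 1.43). In WSD they were CGA (-10.11 ± 2.40), ERVFRD-1 (-10.34 ± 2.01), PGF (-4.20 ± 1.05), OVOL1 (-4.48 ± 1.24), SDC1 (-2.17 ± 0.62) and VCAN (-6.64 ± 1.64). All had an adjusted p of 0.0467 or less. VCAN was at 667 CPM in C 11 and at 28.0 CPM at most in the other controls. Without C 11 its differences were -1.47 in T and -2.46 in WSD. Syncytiotrophoblast markers summed to 138.7, 249.8, 10933, 4054 and 8028 CPM in C 1, C 2, C 8, C 11 and C 12. Their sums ran from 127.3 to 3734 CPM (T 1) in T and from 153.6 to 588 CPM in WSD. Without C 8, C 11 and C 12 the DDIT3 difference was 0.76 in T and -0.08 in WSD. In these fits 0 of the 31 subunit genes passed in either comparison, where 0% and 0.00742% of all genes did.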

How the data were processed

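The values deposited by the authors were unnormalized counts for each gene in 25 blastocyst libraries. FastQC 0.11.8, Trimmomatic 0.39, STAR 2.7.0 and the build Mmul_10 are named in the submitters' processing notes. Which program counted the reads, with which annotation and strand setting, was not stated in the labels or notes, so reads of near-identical copies, such as subunit pseudogenes, could be split or shared.

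Gene identifiers were paired with symbols for 24173 of 35395 rows. A gene was tested if 5 or more libraries had 1 CPM or more (13934 genes). After TMM scaling, edgeR 4.0.16 (R 4.3.3) was run on all 4 groups together, with 1 shared estimate of spread, and contrasts were tested with the robust quasi-likelihood F-test and Benjamini-Hochberg adjustment (threshold 0.05). The procedure was tested on simulated data. SE is the log2 difference over the root of F. Levels are TMM-scaled CPM, and deviations use log2(CPM + 1). Named genes are, per comparison, every subunit gene past the threshold, the 3 with the smallest p in each direction, the 3 catalytic subunits, and up to 5 genes past the threshold per related list. Other genes were named for the libraries that stand apart or to show a level, after their values were seen. The subunit genes and lists were chosen with earlier results of these data known. Alternatives used DESeq2 1.42.0, limma 3.58.1, other scalings, filters and left-out libraries. No library repeated another within a group (84 pairs, smallest chi-square per gene 47.37). Of the listed genes ADRM1, DDI2, HSPA1A, HSPA1B, TEAD4, KRT8, SOX2, ARGFX, HBB and RPS27A had no single matching row and were not analysed here. Of the related genes, 1 result is not reported here.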

Additional observations from a re-analysis of the deposited data

Results flagged for a closer look

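The subunit genes and their summed level were checked for a single library far from the rest, in 96 groups of 5 to 10 libraries. Chance gives about 1 in 20, and 5 groups had such a library, a share near that rate. All 5 were of subunit genes. In C 12, PSMA2 was at 877.3 CPM (next library 445.8 CPM), PSMC2 at 571.1 CPM (next 267.6 CPM) and PSMD7 at 906 CPM (next 411.4 CPM), each far above the other 4 controls. PSMD2 was at 525.4 CPM in WSD 3, below the next library at 829.3 CPM. PSMD4 was at 639.2 CPM in WSD 6, above the next at 419.4 CPM.

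The effect of the diet differed with and without testosterone for 3 endoplasmic reticulum stress genes by edgeR's interaction test: DDIT3 (log2 difference 7.2, adjusted p = 0.034), HERPUD1 (5.17, adjusted p = 0.0486) and EIF2AK3 (4.64, adjusted p = 0.0371). Their control levels were highest in C 8, C 11 or C 12. None of the 3 passed without C 12 (3.61, 3.76 and 4.26, adjusted p = 0.132, 0.132 and 0.0962), without TWSD 2 (6.82, 4.35 and 3.48, adjusted p = 0.349, 0.544 and 0.695), or without C 8, C 11 and C 12 (0.34, 0.725 and 1.165, adjusted p = 0.875, 0.66 and 0.434). With the replicate block and with voom the adjusted p was 1 for all 3. EIF2AK3 was also lost without C 8 (3.93, adjusted p = 0.0618). With library totals or no filter on low counts none of the 3 passed, and with DESeq2 size factors HERPUD1 did not (adjusted p = 0.0513).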

How the results depend on the processing

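The count of subunit genes called stayed at 0 for WSD against C and T against WSD under every alternative. For TWSD against C it was 2 with a stricter filter (5 CPM in 5 libraries, 2.23% of all genes), 6 with DESeq2 (14.3%), and 0 to 19 with 1 library left out (20.1% where 19). Against the single treatments it was 1 with the stricter filter (0.321%), 2 with DESeq2 (4.84%), 9 with only the groups compared (4.6%), 8 without C 8, C 11 and C 12 (3.84%; also without T 1 besides, 4.71%), and 0 to 23 with 1 library left out (19.5% where 23). The interaction gave 2 with DESeq2 (2.83%) and 0 to 16 with 1 library left out (16.2% where 16). T against C gave 1 with DESeq2 (7.91%) and 0 to 1 with 1 library left out (1 without C 1, C 2 or C 8, with 9.32%, 7.57% and 4.5%). The interaction compares all 4 groups, so it had no separate fit with only the groups compared. Fits with 1 TWSD library assume that it varies like the other groups.

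Of 659 values of single subunit genes under alternatives, 25 changed sign. With voom, PSMD8 in TWSD against C was 0.001. With 1 library left out, PSMB7 in T ranged from -0.567 to 0.014 (without C 12). In TWSD against C, PSMC4 ranged from -0.931 to 0.061 and PSMD8 from -0.456 to 0.045 (both highest without C 12), and PSMD4 from -0.092 (without TWSD 2) to 2.084. Against the single treatments PSMB4 ranged from -0.112 to 1.782, PSMD4 from -0.135 to 2.05 (both lowest without TWSD 2) and PSMD13 from -0.295 to 0.043, and the PSMD3 interaction ranged from -1.57 to 0.048. Without both C 12 and TWSD 2, chosen after seeing the data, PSMB7 in T was 0.028, PSMB4 and PSMD4 were -0.083 and -0.091 against C and -0.115 and -0.137 against the single treatments, and the PSMC2 interaction was -0.031. Without C 8, C 11 and C 12, PSMA4 was -0.003 in T and -0.02 in WSD (-0.021 and -0.042 without T 1 besides).

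Of 642 values of related and marker genes, 228 lost the call and 30 changed sign, all 30 without C 8, C 11 and C 12. In T against C these were DDIT3 0.755, HERPUD1 0.189, TRIB3 0.208, VCAN 1.21, ERVFRD-1 2.564, MAFF 0.937 and MAFG 0.312 (without T 1 besides, 0.476, 0.006, 0.198, 1.172, 0.122, 0.822 and 0.239). In WSD against C they were TRIB3 0.13, EIF2AK3 0.257, VCAN 0.233, CGA 0.611, OVOL1 0.297, SDC1 0.3, MAFF 0.82 and MAFG 0.084 (without T 1 besides, 0.11, 0.237, 0.213, 0.632, 0.262, 0.268, 0.791 and 0.061). UCHL5 and MAFK in TWSD against C lost their calls with library totals (adjusted p = 0.118 and 0.0746), no filter (0.0624 and 0.0667) voom (0.971 for both), only the groups compared (0.859 for both), the replicate block (0.315 and 0.289), without TWSD 2 (0.646 and 0.637), without C 11 (0.0831 and 0.0589), without C 8, C 11 and C 12 (0.196 and 0.229; 0.177 and 0.21 without T 1 besides) and without C 12 and TWSD 2 (0.679 and 0.551). UCHL5 also lost it with DESeq2 size factors (0.0535) and without C 8 (0.0633). The cause of these changes was not tested.

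Library numbers recur across groups, but the labels do not say that they pair libraries, and of 16 same-number pairs 2 correlated over 0.1 (median -0.016, range -0.352 to 0.203). Of 23 libraries with a partner, 1 correlated best with its own number. With the number as a replicate block 0 subunit genes were called in all 6 comparisons, as were 0 of all genes tested, and 6 values changed sign: PSMB7 0.134 and PSMD7 0.007 in T, PSMB7 0.018 in WSD, PSMC4 0.188 and PSMD8 0.214 in TWSD against C, and the PSMC6 interaction 0.178.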
